A study of Danio rerio with 6 samples.

Results

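Hair cells of the adult zebrafish inner ear are described here by how much of their own transcriptome each gene takes up. The hair cell samples were chosen by their labels and are 3 of the 6 samples of the series. The other 3 are of non-sensory surrounding cells (nsSCs), which serve to show where the profile of hair cells differs. All 6 samples came from adult females of the transgenic line Tg(pou4f3:GAP-GFP)s273t, 11 to 13 months old, in which the pou4f3 promoter drives a membrane-bound green fluorescent protein (GFP). Each sample held RNA of 1000 cells taken up one by one with a suction pipette from the dissociated lagena, utricle and saccule, and the cells of several fish were pooled. Hair cells were GFP-positive and carried a visible stereocilia bundle, whereas nsSCs had neither. Auditory and vestibular hair cells therefore cannot be told apart in these samples, and the nsSC samples can hold any cell type of the dissected tissue without fluorescence.

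Hair cells convert movement into an electrical signal. Deflection of the stereocilia opens mechanotransduction channels, the receptor potential gates calcium channels at the base of the cell, and calcium triggers release of glutamate from vesicles held at a ribbon synapse. Calcium enters at both ends of the cell, so that calcium-binding buffers, pumps and the mitochondria that fuel them are well-known parts of its biology. A within-cell profile asks which of these functions take up most of the messenger RNA.

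Levels are RPKM as deposited, that is read numbers scaled to transcript length and to the mapped reads of the library, so that they can be compared between genes. The share of a gene is its RPKM as a percent of the sum over all 31701 entries with values. In hair cells that sum was 713194, 706672 and 704199 RPKM, and it was from 976739 RPKM upwards in the nsSC samples. It is a share per length of transcript and not a share of reads. RPKM carry no counts. The methods state only a rounded number of reads common to all samples, and without the mapped reads and the transcript lengths no counting interval is given. A value with ± is the mean with its SD (n = 3), and sets of 3 values follow the order of replicates 1, 2 and 3. An exact permutation test of 3 samples against 3, two-sided, cannot give a p below 0.1, so that no class share can pass 0.05 and only the tests across all genes use adjusted p-values. The labels call the samples biological replicates, and by the methods each was a pool of cells from a few fish, with both cell types taken from each fish. Which fish went into which sample is not given in the sources used here.

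The markers of hair cells were among the upper ranks of the profile. s100s, a calcium-binding protein gene, had 21368, 21143 and 21504 RPKM in hair cells and ranked first in each sample. The vesicular glutamate transporter gene slc17a8, which loads the synaptic vesicles, had 833, 845 and 803 RPKM and ranked 81 by its mean. otofb, an otoferlin gene of vesicle fusion, had 748, 748 and 680 RPKM and ranked 100. By their means both synaptic genes were thus within the first 100 entries. gfi1aa, a transcription factor gene, had 602, 591 and 570 RPKM at rank 137, directly above the channel gene tmc2a at 576, 578 and 583 RPKM and rank 138. pou4f3 had 343, 361 and 322 RPKM and was the lowest of the 6 markers, at rank 260. Cells were picked by a GFP under the promoter of this gene, so that its level is given as a description. In nsSCs, s100s ranked between 854 and 914, and pou4f3 between 12812 and 13340. The label of hair cells was met by all 6 markers in all 3 samples.

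The most abundant entries of hair cells were genes of calcium binding and of the mitochondrion. Of the 20 highest, 9 were mitochondrial entries and 5 encoded EF-hand calcium-binding proteins. s100s alone made up 3.01 ± 0.035% of the total RPKM. pvalb9, a parvalbumin gene of cytosolic calcium buffering, had 15820, 15230 and 15248 RPKM, which is 2.18 ± 0.034% of the total. The second S100 gene, s100t, had 10510, 10066 and 10444 RPKM. pvalb8, the second parvalbumin gene, had 7069, 7478 and 6757 RPKM, and cabp2b, a calcium-binding protein gene linked to calcium channels, had 5798, 5696 and 5893 RPKM. These 5 genes kept the same order in all 3 hair cell samples. They ranked far lower in nsSCs, where s100s was at 88.5, 84.5 and 89.2 RPKM and pvalb8 at 11.9, 14.1 and 13.0 RPKM.

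Among the mitochondrially encoded genes, mt-co2, for a subunit of cytochrome c oxidase, had 19034, 18046 and 19583 RPKM and was second in every hair cell sample. mt-co3 and mt-co1 of the same enzyme were at ranks 4 and 8, and mt-cyb and mt-atp6 followed at ranks 10 and 11. Entries whose names start with AC024175 stood at ranks 5, 6 and 20, the last of these being AC024175.21. mt-atp8, for another subunit of the ATP synthase, had 4283, 4233 and 4817 RPKM. The AC024175 names are those of the mitochondrial sequence, and no gene name was found for these entries. AC024175.9 was the least even of the first 10, at 15943, 13730 and 13376.5 RPKM, and its high sample was replicate 1.

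The 6 remaining entries of the 20 belong to oxygen and energy supply, to transcription and to genes of less known function. mb, the myoglobin gene, had 9949, 10191 and 9828 RPKM and ranked 9. ckbb, a creatine kinase gene whose product regenerates ATP from phosphocreatine, had 6877, 7117 and 6521 RPKM. The glycolytic enzyme gene gapdhs had 4947, 4929 and 4642 RPKM. All 3 of these metabolic genes were within the first 17. fosab, a Fos transcription factor gene of the immediate early group, had 5410, 5589 and 5376 RPKM at rank 15. cd164l2, which encodes a membrane protein of the sialomucin type, had 3949, 3936 and 3951 RPKM, a coefficient of variation (CV) of 0.209%. CR383676.2, named si:ch211-276i12.12 in the reference list, had 5600, 4984 and 5464 RPKM. Of the 100 most abundant entries, 16 stand in the deposited table under the name of a clone or an unnamed transcript, AC024175 entries included. Without the AC024175 entries there were 12, some with a gene name in the reference list.

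**Figure D1:**
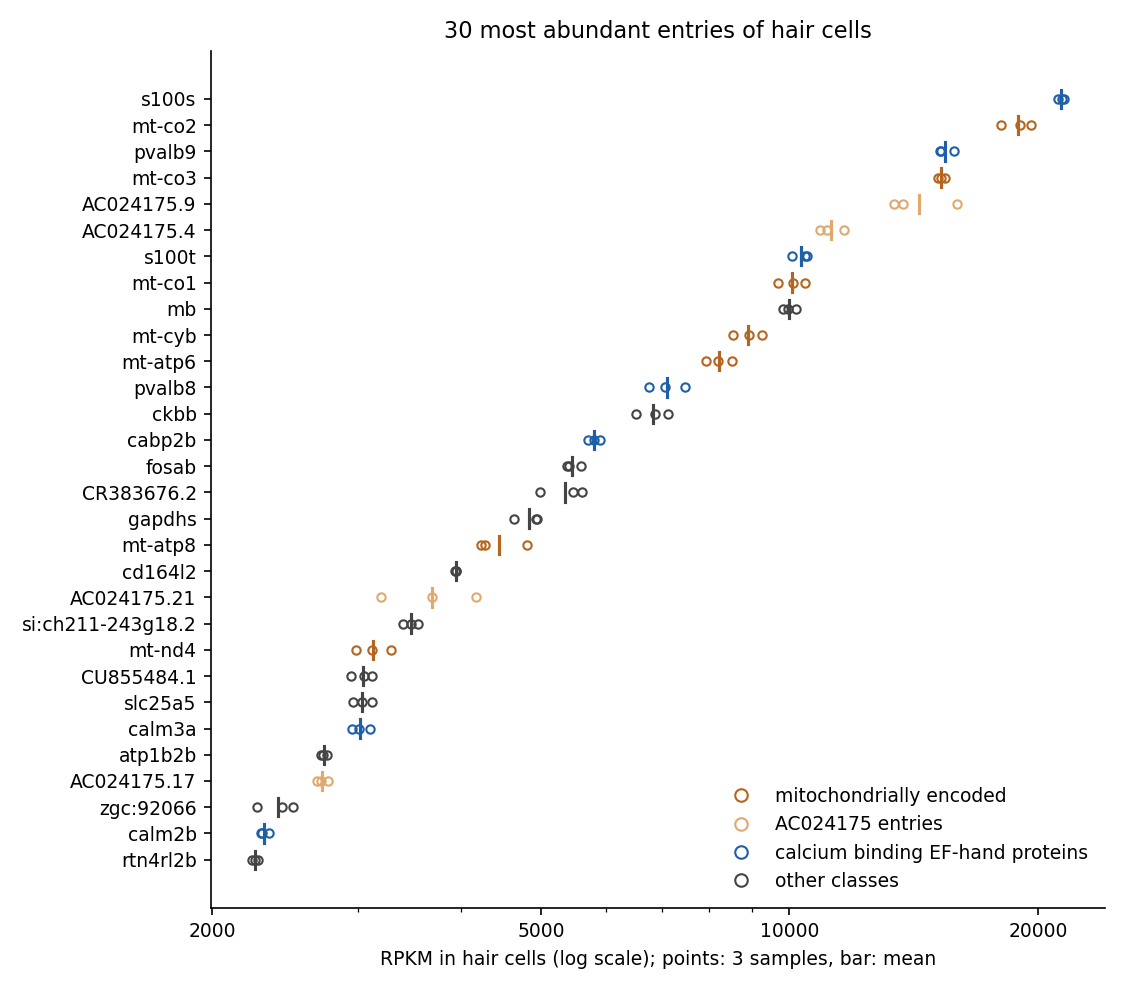
RPKM (log axis) of the 30 most abundant entries of hair cells, with a point for each of the 3 samples and a bar for their mean, coloured by class. s100s stands alone at the top between 21143 and 21504 RPKM, and EF-hand genes and mitochondrial entries make up 14 of the first 20.

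The order of the first entries was nearly the same in each sample. The same 10 genes were the first 10 in all 3 hair cell samples, 19 genes were in the first 20 of all 3, and 96 in the first 100 of all 3. Of the 19 pairs of neighbours among the first 20, 13 kept their order in 3 of 3 samples. In 8 of the 19 pairs the ranges overlapped. Both genes of a pair come from the same library, so that overlap alone does not settle whether they differ. s100t and mt-co1 overlapped but kept their order in 3 of 3 samples, as did pvalb8 and ckbb. For pvalb9 and mt-co3 the ranges overlapped and the order changed between samples. The same held for mt-co1 and mb, and for fosab and CR383676.2. s100s and mt-co2 did not overlap, nor did mt-co2 and pvalb9. The largest difference in rank between samples was 2 places within the first 20 and 21 places within the first 100. Across all entries, Spearman's rank correlation of 2 hair cell samples was 0.971 to 0.979, and among the 12669 genes that reached 1 RPKM in every hair cell sample it was 0.986 to 0.993. These are correlations across genes, which are not independent replicates and share library and length.

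Hair cells spread their RPKM over many genes. It took 194, 203 and 193 genes to reach 50% of the total in hair cells, against 12, 13 and 12 genes in nsSCs. For 90% it took 3693, 3754 and 3717 genes in hair cells, against 1915, 1885 and 1877 genes in nsSCs. The 10 most abundant genes held 19.2 ± 0.36% of the total in hair cells and 48.2 ± 0.68% in nsSCs. The groups did not overlap in any of these measures (exact permutation p = 0.1 each, the smallest possible). This difference moved with the mitochondrial entries, which made up 15.7%, 14.9% and 15.8% of the total in hair cells and 53.9%, 52.5% and 53.8% in nsSCs. Computed without them, the 10 most abundant genes held 15.5 ± 0.08% in hair cells and 12.7 ± 0.26% in nsSCs, which is the opposite order. The number of genes to reach 50% was then 337, 340 and 339 in hair cells and 326, 293 and 312 in nsSCs. For 90% it was 4206 ± 18 in hair cells and 4275 ± 72 in nsSCs, with overlapping samples (exact permutation p = 0.3).

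**Figure D2:**
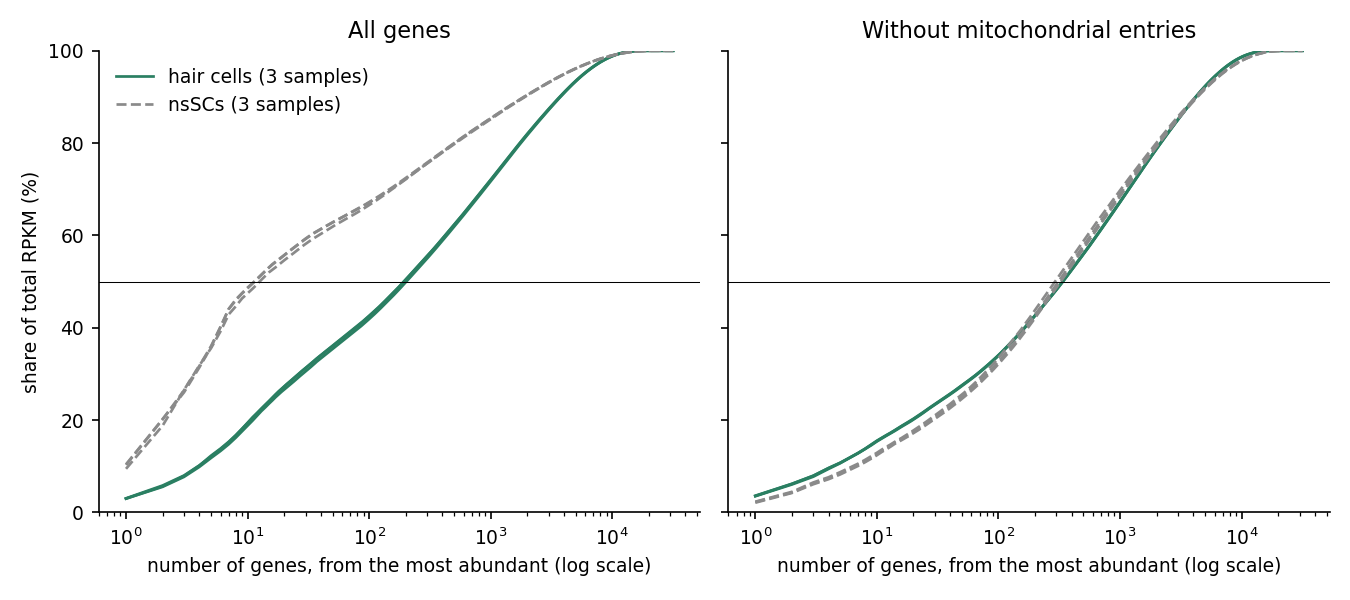
Share of total RPKM (percent) against the number of genes taken from the most abundant down (log axis), for the 3 hair cell samples (green, solid) and the 3 nsSC samples (grey, dashed), with all genes on the left and without mitochondrial entries on the right. The hair cell curves reach 50% at 193 to 203 genes and the nsSC curves at 12 or 13 on the left, while on the right all 6 curves reach it between 293 and 340 genes.

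By level, the profile had few very high entries and a long middle range. Only 8 entries had a mean of 10000 RPKM or more, and they held 16.5% of the hair cell total. The 57 genes between 1000 and 10000 RPKM held 21.7%, the 964 between 100 and 1000 RPKM held 34.1%, and the 5266 between 10 and 100 RPKM held 23.3%. The 7080 genes between 1 and 10 RPKM added 4.11%. Genes of at least 1 RPKM in all 3 hair cell samples numbered 12669, or 39.96% of the entries, with a median of 9.82 RPKM and an interquartile range of 3.83 to 28.6 RPKM. At 10 RPKM the number was 5994, at 100 RPKM 983 and at 1000 RPKM 62. Another 12183 entries (38.4%) were listed at 0 in all 3 samples. The 16939 entries above 0 in all 3 samples together held 99.9% of the hair cell total.

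All entries were sorted into 23 classes by symbol, each entry into the first class that matched, and the 28332 left over formed a class of other genes. The other genes took up 41.8 ± 0.16% of the hair cell total. Among the named classes, mitochondrially encoded genes came first with 10.7 ± 0.38% and EF-hand calcium-binding proteins second with 10.1 ± 0.05%. Nuclear genes of oxidative phosphorylation followed with 5.74 ± 0.09%, the AC024175 entries with 4.81 ± 0.26% and vesicle traffic with 3.10 ± 0.03%. Beside each class, counts of genes called between the cell types are given from limma on log2(RPKM + 0.1). A call needs a 2-fold difference or more together with an adjusted p below 0.05. Of the 22374 genes tested, 31.0% were called higher and 35.4% lower in hair cells, and 66.4% in either direction, so that a class count has to be read against these shares. For all 24 classes the hair cell and nsSC samples did not overlap (exact permutation p = 0.1 each). How often sums of other genes overlap was not counted, so that this is not a trait of the classes.

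**Figure D3:**
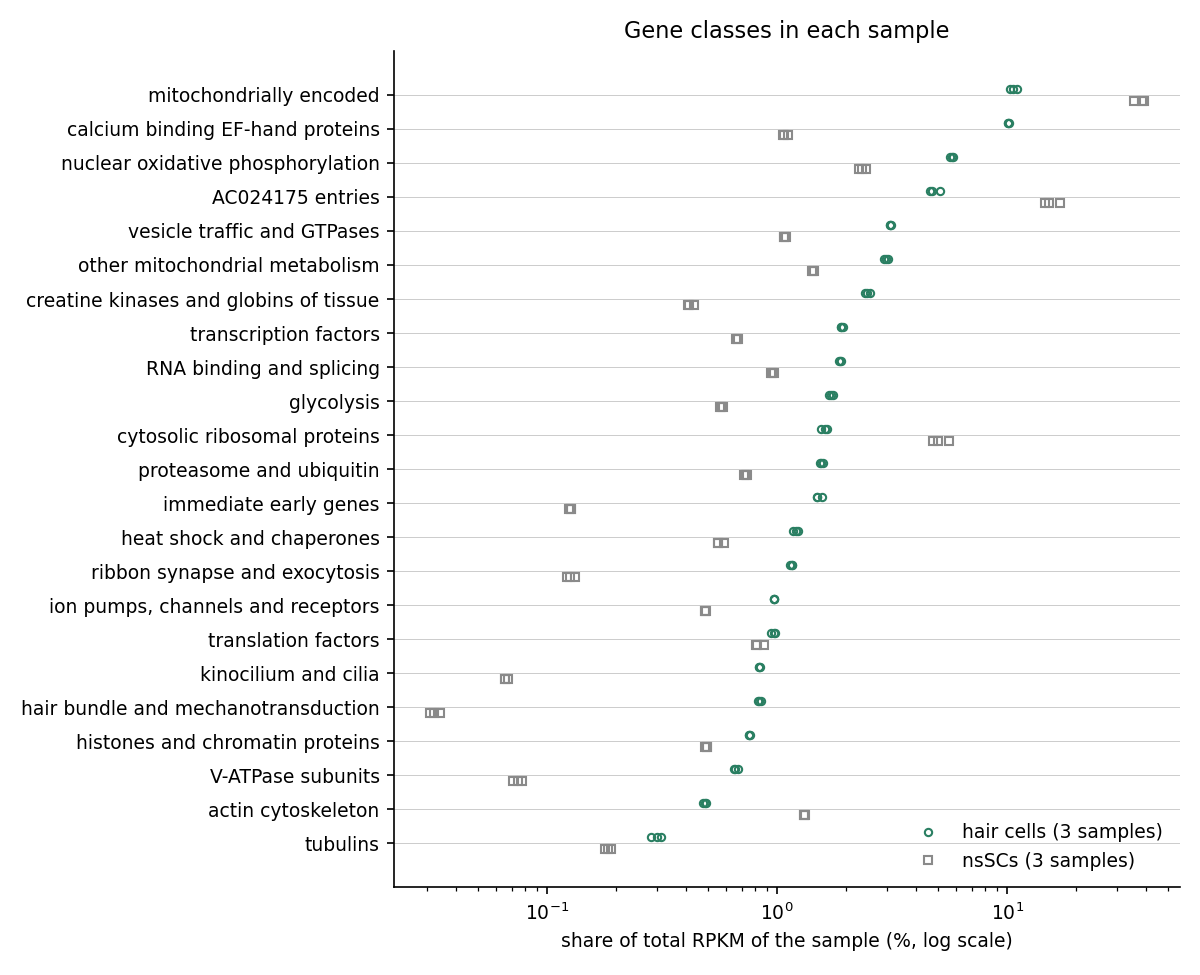
Share of total RPKM (percent, log axis) of the 23 named classes in each of the 3 hair cell samples (green circles, upper) and the 3 nsSC samples (grey squares, lower). The hair cell points of a class lie close together, with EF-hand calcium-binding proteins at about 10.1% in hair cells against 1.08% in nsSCs, and mitochondrially encoded genes, AC024175 entries, cytosolic ribosomal proteins and the actin cytoskeleton lie further left in hair cells.

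Calcium binding rested on a few genes. The class held 10.1%, 10.1% and 10.2% of the total in hair cells, against 1.07%, 1.11% and 1.06% in nsSCs. s100s, pvalb9 and s100t made up 65.8% of it in hair cells. Of its 63 members, 13 were above 100 RPKM, 35 were at 1 RPKM or more in all 3 hair cell samples and 12 were listed at 0 in all 3. By limma 19 of 56 tested members were called higher and 27 lower in hair cells. More members were thus lower than higher, as among all genes tested (35.4% lower and 31.0% higher). The summed share was 9.34 times that of nsSCs.

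Nuclear genes of energy supply took up nearly as much as calcium binding. Oxidative phosphorylation, glycolysis, creatine kinases and tissue globins together took up 9.93%, 10.1% and 9.73% of the hair cell total, against 3.25%, 3.45% and 3.33% in nsSCs. The nuclear oxidative phosphorylation genes were even in level. Of 100 members, 94 were at 1 RPKM or more in all 3 hair cell samples, with a median of 312 RPKM, and the 3 highest held only 13.3% of the class. cox7c, for a small subunit of cytochrome c oxidase, had 2256, 2239 and 2132 RPKM. atp5o, for a subunit of the ATP synthase, had 1711, 1751 and 1636 RPKM, and the cytochrome c oxidase entry COX5B_(1_of_many) had 1492, 1561 and 1465 RPKM. By limma 25 of 98 tested members were called higher, 5 lower and 68 not. The share of higher calls was below the 31.0% of all genes, and that of lower calls was far below the 35.4% of all genes. The number of higher calls moved with the scaling, to 67 with samples scaled to the same total RPKM and to 10 with median-ratio scaling.

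The summed RPKM of mitochondrially encoded genes was 1.85, 1.77 and 1.96 times that of the nuclear oxidative phosphorylation genes in hair cells, and 17.3, 14.6 and 16.5 times in nsSCs. The samples did not overlap (exact permutation p = 0.1). All 13 mitochondrially encoded genes were called lower in hair cells. The nsSC share of these genes varied more between samples (37.8 ± 2.0%) than the hair cell share (10.7 ± 0.38%).

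Glycolysis and energy buffering were each led by a few members. gapdhs made up 39.8% of the glycolysis class and the first 3 genes 61.7%, with aldocb, an aldolase gene, at 1647, 1715 and 1643 RPKM and the pyruvate kinase gene pkma at 980, 1032 and 949.9 RPKM. In the class of creatine kinases and tissue globins, mb, ckbb and the mitochondrial creatine kinase gene ckmt1 (629, 643 and 623 RPKM) made up 99.95%, mb alone 57.2%. By limma 14 of 33 tested members of the glycolysis class were called higher and 13 lower, and with median-ratio scaling it was 10 higher and 13 lower. slc25a5, which encodes an ADP/ATP carrier of the inner mitochondrial membrane, led the other mitochondrial genes with 3039, 3122 and 2960 RPKM. arg2, for a mitochondrial arginase, had 1404, 1406 and 1398 RPKM, and gpx1b, for a glutathione peroxidase that removes peroxides, had 1240, 1240 and 1180 RPKM.

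The apparatus of mechanotransduction took a small share. The hair bundle class held 0.830%, 0.849% and 0.824% of the hair cell total, against 0.0321%, 0.0343% and 0.0309% in nsSCs. Its highest member was atp2b1a, a calcium pump gene of the plasma membrane, with 1013, 1023 and 980.1 RPKM at rank 64. twf2b, for an actin-binding twinfilin, had 801, 795 and 765 RPKM, and tmc2a, for a channel protein of mechanotransduction, followed. Of 75 members, 64 were at 1 RPKM or more in all 3 hair cell samples, with a median of 23.3 RPKM, and 14 were above 100 RPKM. By limma 62 of 72 tested members were called higher and 8 lower. Cells were picked by a visible bundle, so that these calls are not independent of the collection.

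The kinocilium and cilia class, which covers axonemal and ciliary transport proteins, held 0.844%, 0.833% and 0.831% of the hair cell total, against 0.0673%, 0.0653% and 0.0653% in nsSCs. Its RPKM were spread over many members, the first 3 holding 14.9%. dynll2b, a dynein light chain gene, had 442, 438 and 436 RPKM. spag1a, a gene for the assembly of dynein arms, had 228, 232 and 229 RPKM, and tekt3, for a filament protein of cilia, had 215, 214 and 206 RPKM. By limma 145 of 164 tested members were called higher and 7 lower.

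The synapse class held 1.14%, 1.16% and 1.16% of the hair cell total, against 0.132%, 0.122% and 0.126% in nsSCs. clta, the clathrin light chain gene of membrane retrieval, led it with 2027, 2062 and 2032.5 RPKM. It was followed by slc17a8 and by nptna, a gene for a cell adhesion protein, at 791, 779 and 892 RPKM. By limma 64 of 135 tested members were called higher and 43 lower. The wider class of vesicle traffic held 3.10 ± 0.03% of the hair cell total against 1.07 ± 0.01% in nsSCs, and was led by cd164l2. anxa5a, an annexin gene, had 2087, 2068 and 2005 RPKM, and the tetraspanin gene tspan13b had 1232, 1212.5 and 1369 RPKM. Together with cd164l2 these genes made up 33.1% of the class. They were taken in by their symbols, so that the share is not one of vesicle traffic alone. The V-ATPase, the proton pump that acidifies vesicles, took 0.652%, 0.649% and 0.672% of the hair cell total, against 0.0778%, 0.0713% and 0.0748% in nsSCs. Its gene atp6v0a1a had 526, 530 and 540 RPKM, atp6ap2 458, 436 and 465 RPKM, and atp6v1g1 423, 420 and 464 RPKM. Of 28 members, 25 were at 1 RPKM or more in all 3 hair cell samples and by limma 20 were called higher and 4 lower.

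Ion pumps, channels and receptors held 0.967%, 0.972% and 0.966% of the hair cell total, against 0.491%, 0.485% and 0.487% in nsSCs. The sodium pump subunit gene atp1b2b alone was 39.8% of the class, with 2757, 2723 and 2709 RPKM, and atp1a3b, for a catalytic subunit of the pump, had 825, 828 and 794 RPKM. Next, clic5a, for a chloride intracellular channel protein, had 488, 478 and 564 RPKM. The class was otherwise low: of 418 members, 124 were at 1 RPKM or more in all 3 hair cell samples, with a median of 7.76 RPKM, and 166 were listed at 0 in all 3. Only 8 members were above 100 RPKM. These numbers depend on the sorting, as the pump gene atp2b1a and the channel gene tmc2a were counted with the hair bundle. The entry si:rp71-68n21.12, named hcn5 in the reference list after an ion channel, had 1212, 1178 and 1138 RPKM and stayed among the other genes. By limma 118 of 294 tested members were called higher and 133 lower, and with samples scaled to the same total it was 129 higher and 125 lower.

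Immediate early genes, which are induced quickly by stimuli and stress, took a larger share than the hair bundle. They held 1.49%, 1.56% and 1.48% of the hair cell total, against 0.126%, 0.127% and 0.124% in nsSCs. fosab made up 51.0% of the class in hair cells. jun, whose product pairs with Fos, had 1986, 2083 and 1920.0 RPKM, and its relative junbb had 728, 799.6 and 684 RPKM. By limma 25 of 47 tested members were called higher and 11 lower. Both cell types came from enzymatically digested tissue, and levels in undisturbed tissue were not measured. Heat shock and chaperone genes held 1.2 ± 0.03% in hair cells and 0.564 ± 0.02% in nsSCs, with hspa8, a constitutive chaperone gene, at 1428, 1373 and 1307 RPKM in hair cells. ppiab, for a cyclophilin that helps proteins to fold, had 685, 701 and 659.8 RPKM, and hsp70.2, of the heat shock group, had 644, 672 and 615 RPKM.

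Transcription factors and cofactors held 1.90%, 1.94% and 1.89% of the hair cell total, against 0.677%, 0.668% and 0.664% in nsSCs. The factor genes fosab and jun, which were higher than any member, were counted with the immediate early genes and not here. Within the class, atf4b, of the stress-responsive ATF4 type, was highest with 1145, 1130 and 1185 RPKM at rank 58. gfi1ab and gfi1aa, for repressors needed by hair cells, came next, gfi1ab with 616, 617 and 573 RPKM. Their ranges overlapped. xbp1, of the unfolded protein response, had 460, 479 and 451 RPKM. gata3, a factor gene of inner ear development, had 343, 348 and 333 RPKM, and its range overlapped with that of pou4f3. skor1a, for a corepressor, had 275, 283 and 279 RPKM, and lmo4b, for a cofactor, had 259, 261 and 264 RPKM. MAF1 (414, 401 and 393 RPKM) and lmo7b (234.2, 246.6 and 234.1 RPKM) were also taken in by their symbols. The product of the human counterpart of MAF1 represses RNA polymerase III, and lmo7b is not known as a transcription factor. Of 704 members, 332 were at 1 RPKM or more in all 3 hair cell samples and 31 above 100 RPKM. By limma 180 of 559 were called higher and 199 lower, close to the shares of all genes. With samples scaled to the same total it was 227 higher and 178 lower.

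The machinery of translation took little of the hair cell total. Cytosolic ribosomal proteins held 1.62%, 1.65% and 1.55% in hair cells, against 4.75%, 5.61% and 5.0% in nsSCs. Of 89 tested members, 85 were called lower and 2 higher in hair cells by limma. rpl32, the highest, had 523, 528 and 495 RPKM at rank 162, so that none of the class was within the first 100. rpl19 had 484, 483 and 460 RPKM, and rpl3 had 356, 377 and 337 RPKM. The summed RPKM of EF-hand proteins was 6.25, 6.08 and 6.53 times that of ribosomal proteins in hair cells, and 0.225, 0.198 and 0.213 times in nsSCs.

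Translation factors held 0.958 ± 0.02% in hair cells and 0.833 ± 0.04% in nsSCs. Their first member was eef1a1b, an elongation factor gene that delivers tRNA to the ribosome, with 664, 660.1 and 648 RPKM in hair cells against 2.23 RPKM on average in nsSCs. Its relative eef1a1l2 had 377, 387 and 358 RPKM in hair cells, against an average above 1000 RPKM in nsSCs. The 2 genes thus differed in opposite directions, eef1a1b being called higher and eef1a1l2 lower by limma. pabpc1a, for a poly(A)-binding protein, had 484, 520 and 451 RPKM.

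RNA binding and splicing held 1.88 ± 0.02% in hair cells and 0.954 ± 0.01% in nsSCs. ddx5, an RNA helicase gene, had 1389, 1409.5 and 1376 RPKM, and rbm24a, a regulator of splicing and messenger stability, had 859.6, 840.1 and 872 RPKM. hnrpdl, for a ribonucleoprotein of RNA processing, had 672, 681 and 648 RPKM. The proteasome and ubiquitin class held 1.55 ± 0.02% in hair cells and 0.730 ± 0.01% in nsSCs, with skp1, a subunit gene of ubiquitin ligases, at 903, 913 and 860.2 RPKM in hair cells. The ubiquitin gene ubc had 742, 774 and 723 RPKM and usp2a, for a deubiquitinating enzyme, had 414, 437 and 422 RPKM. Histones and chromatin proteins held 0.756 ± 0.003% in hair cells and 0.491 ± 0.005% in nsSCs, led by HIST2H2AB_(1_of_many) at 689, 739 and 674 RPKM. hmgb1a and hmgb1b, for non-histone chromatin proteins, averaged 306 and 291 RPKM in hair cells, against 297 and 298 RPKM in nsSCs, and neither was called by limma.

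The actin class took a smaller share in hair cells than in nsSCs. It held 0.483%, 0.492% and 0.474% in hair cells, against 1.3%, 1.33% and 1.31% in nsSCs. actb2, a cytoplasmic actin gene, had 857, 879 and 817 RPKM in hair cells, and it was the only entry of the first 100 besides 16 mitochondrial ones that was called lower there. By limma 47 of 76 tested members of the class were called lower and 9 higher. myl12.2, a myosin light chain gene, was among those called higher, with 306, 283 and 284 RPKM in hair cells against 103.5 RPKM on average in nsSCs. Tubulins held 0.298 ± 0.01% in hair cells and 0.184 ± 0.01% in nsSCs.

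Since a share falls when another class takes more, the class shares were also computed without mitochondrial entries. The order turned for 4 classes and for none of the other classes that hold no mitochondrial entries: the other genes then held 49.5% in hair cells and 59.9% in nsSCs, and translation factors 1.13% in hair cells and 1.79% in nsSCs. Histones and chromatin proteins held 0.894% in hair cells and 1.05% in nsSCs, and tubulins 0.353% in hair cells and 0.395% in nsSCs. EF-hand proteins held 12% in hair cells and 2.32% in nsSCs, and ribosomal proteins 1.90% in hair cells and 11.0% in nsSCs.

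In most gene families 1 or 2 members carried nearly all of the RPKM. The S100 family of 12 entries summed to 32168 ± 428 RPKM, or 4.54% of the hair cell total, and s100s and s100t were 98.5% of it. s100s exceeded s100t by 2.03 to 2.1 times in the 3 samples. s100a1, the next, was at 401, 372 and 396 RPKM. The 9 parvalbumins summed to 22544 ± 467 RPKM, of which pvalb9 and pvalb8 were 99.95%. pvalb6, the next, was at 5.36, 5.22 and 4.54 RPKM, and pvalb3, which averaged 1060 RPKM in nsSCs, was at 3.67, 3.01 and 2.65 RPKM in hair cells.

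Calmodulins, the general calcium sensors, were divided among more members. Their 6 entries summed to 9626, 9589 and 9700.5 RPKM, or 1.36% of the total. The first 4 were between 2027 and 3103 RPKM. calm3a (named calm3b in the reference list) held 31.3% of the sum and was followed by calm2b, calm1b and calm1a. A second entry under the symbol calm3a was at 45.2, 44.6 and 44.7 RPKM. The order of the 6 was the same in every hair cell sample. The entries are close paralogs, and reads that match several of them could have been split in the authors' mapping.

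The sodium pump had 1 main gene for each subunit. atp1a3b was 84.3% of the catalytic subunits and 10.4 to 10.5 times the next, atp1a1b. atp1b2b was 93.0% of the beta subunits and 18.7 to 18.9 times atp1b1a. In nsSCs atp1a3b and atp1b2b averaged 4.07 and 7.52 RPKM. The summed RPKM of a subunit differed much less between the cell types than its members did, at 976, 984 and 943 RPKM in hair cells against 1129, 1243 and 1153 RPKM in nsSCs for the catalytic subunits. For the beta subunits it was 2963, 2927 and 2914 RPKM in hair cells against 2725, 2688 and 2720 RPKM in nsSCs. These sums are RPKM and not shares. The total RPKM was lower in hair cells, so that the direction of such a difference can turn when shares are taken. It turned for the catalytic subunits, whose share of the total was larger in hair cells, at 0.137% on average, than in nsSCs.

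The otoferlin genes of the synapse were closer to each other. otofb exceeded otofa (297, 293 and 298 RPKM) by 2.28 to 2.55 times. In the tmc family of the hair bundle, tmc2a exceeded tmc2b (62.4, 60.6 and 55.7 RPKM) by 9.24 to 10.5 times, and tmc1 came after them at 34.95, 33.7 and 34.3 RPKM. Together these 3 channel genes made up nearly all of the 673 ± 0.83 RPKM of the family, with tmc2a at 86.0%. Among the creatine kinases, ckbb held 91.5%.

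Tubulins and actins were led by genes that are common to many cells. Among the 10 alpha tubulins, tuba8l4 (499, 519 and 481 RPKM) held 44.3% and tuba1a (391, 399.6 and 352 RPKM) came second, 1.28 to 1.37 times lower. tubb4b, a beta tubulin gene of the ciliary type, was 79.1% of its family with 699, 719 and 643 RPKM, and exceeded tubb2b by 3.83 to 3.87 times. actb2 was 72.2% of the actins and exceeded actb1 by 2.61 to 2.73 times.

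**Figure D4:**
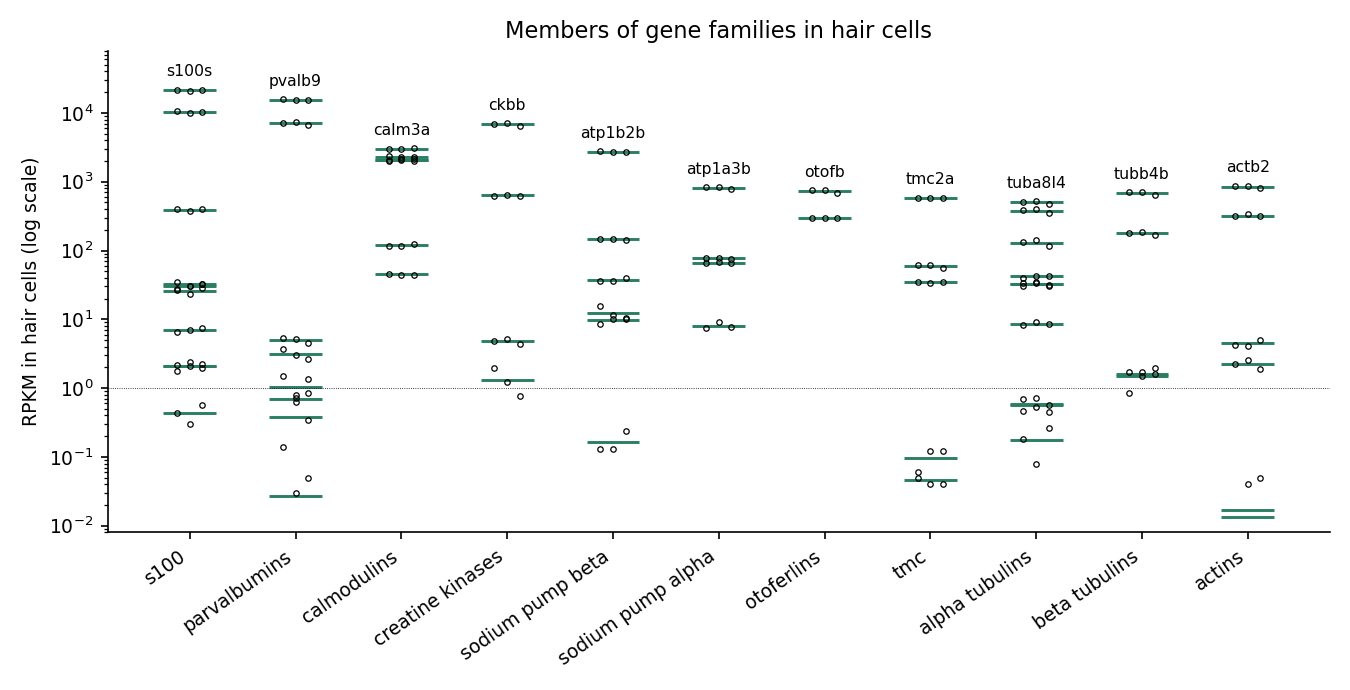
RPKM (log axis) of the members of 11 gene families in hair cells, with a bar for the mean of each member of at least 0.01 RPKM, 3 small points for the samples (values of 0 not drawn) and the name of the highest member. In the S100 and parvalbumin families 2 members stand more than 10-fold above the rest, calmodulins have 4 members near each other, and tmc and both sodium pump families have 1 main member.

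The spread between the hair cell samples was small for most genes. Among the 6295 genes that averaged 10 RPKM or more, the median CV was 5.19% (interquartile range 3.20% to 7.94%), and 87 genes (1.38%) were above 20%. The median CV was 2.67% between 1000 and 10000 RPKM, 5.67% between 10 and 100 RPKM, 13.0% between 1 and 10 RPKM and 34.7% between 0.1 and 1 RPKM. Of the classes, V-ATPase subunits had a median CV of 2.25% (20 genes) and EF-hand proteins of 2.86% (23 genes), while the AC024175 entries stood apart with 52.3% (21 entries).

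The 10 most variable entries were mostly short or unnamed, and 9 of them were listed at 0 in at least 1 hair cell sample. AL929031.1 was above 0 in replicate 2 alone, at 94.7 RPKM, and CT025748.1 in replicate 3 alone, at 36.9 RPKM. AC024175.7, AC024175.6, AC024175.3 and AC024175.23 were among the 10, as were the microRNA entries dre-mir-144 and dre-mir-29b-1, BX677664.1 and AL928650.4. AC024175.6 was at 139 RPKM in replicate 1, at 17.01 RPKM in replicate 2 and at 0 in replicate 3. AL928650.4 was the only one of the 10 above 0 in all 3, at 113.6, 28.4 and 10.8 RPKM.

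Hair cell replicate 1 listed fewer entries above 0 than the others, at 17308 against 18936 and 18384 in replicates 2 and 3. Of the entries listed at 0 in 1 hair cell sample only, 988 were at 0 in replicate 1, 55 in replicate 2 and 189 in replicate 3. At 1 RPKM the 3 samples were close, with 13279, 13410 and 13357 genes.

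Of the 10 lists of genes known from other cell types of the ear, that of supporting cells took up the most of the hair cell profile, with 0.454%, 0.454% and 0.457% of the total. The red blood cell list came next with 0.166% to 0.175%. The 29 supporting cell entries summed to 3235, 3207 and 3215 RPKM in hair cells, against 5115, 5303 and 5129 RPKM in nsSCs. By limma 17 of 29 tested were called higher in hair cells and 5 lower. glula, a glutamine synthetase gene, was the highest with 1680.5, 1655 and 1673 RPKM in hair cells, against 925, 904 and 918 RPKM in nsSCs. It was not called with RPKM as deposited. gata3, which hair cells also express, was second. The members that follow were chosen after their values were seen, and they differ in both directions. The otolith matrix gene otol1a had 103.5, 99.2 and 103.5 RPKM in hair cells, against 0.57, 0.44 and 0.16 RPKM in nsSCs, and stm, also of the otolith, had 150.6, 159.9 and 155 RPKM in hair cells, against 13.3, 12.2 and 11.5 RPKM in nsSCs. otomp had 118, 119 and 126.5 RPKM in hair cells, against 4.75, 6.80 and 7.06 RPKM in nsSCs. her4.1, a target gene of Notch signalling, had 92.9, 93.0 and 101 RPKM in hair cells, against 5.30, 3.92 and 4.74 RPKM in nsSCs. For each of these 4 genes every hair cell value exceeded every nsSC value. The opposite held for s100a10b, at 34.4, 30.04 and 32.7 RPKM in hair cells, against 1900.01, 2082 and 1928 RPKM in nsSCs. glulb, the second glutamine synthetase gene, had 165, 159 and 165 RPKM in hair cells, against 1590.01, 1614 and 1583 RPKM in nsSCs, and sparc, for a matrix glycoprotein, had 66.9, 63.3 and 59.6 RPKM in hair cells, against 496, 497 and 503 RPKM in nsSCs. Whether supporting cell RNA has a part in the hair cell levels was not tested.

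The 29 neuronal entries summed to 613, 616 and 657 RPKM in hair cells, against 218, 218 and 214 RPKM in nsSCs. sncb, a synuclein gene, had 374, 375 and 404 RPKM and made up most of it, and cplx2l, for a complexin of vesicle fusion, had 69.5, 70.3 and 72.3 RPKM. By limma 9 of 28 tested members were called higher and 13 lower in hair cells.

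The highest globin of the red blood cell list was within the upper ranks of the hair cell profile and below its nsSC level. The 18 red blood cell entries summed to 1196, 1237 and 1169 RPKM in hair cells, against 21212, 24995 and 22657 RPKM in nsSCs. An hbba1 entry ranked 166 in hair cells with 497, 539 and 486 RPKM, against an nsSC mean of 10326 RPKM, and a second hbba1 entry had 202, 208 and 193 RPKM in hair cells. Epithelial and keratin genes summed to 1024, 1046 and 1002 RPKM in hair cells, against 4266, 4589 and 4297 RPKM in nsSCs. krt5 was 636, 662 and 628 RPKM of this in hair cells, against 771 RPKM on average in nsSCs. jupa, a junction gene, had 90.4, 91.1 and 86.1 RPKM in hair cells, against 61.8 RPKM on average in nsSCs. Neither of these was called by limma. No member of these 2 lists was called higher in hair cells, except for 1 red blood cell and 2 epithelial entries with samples scaled to the same total. Of the red blood cell entries 11 of 13 tested were called lower, and of the epithelial entries 22 of 28.

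Glial entries summed to 297, 296 and 300.2 RPKM in hair cells, against 5548, 5362 and 5552 RPKM in nsSCs, with mbpa, the myelin basic protein gene, at 132, 127 and 139 RPKM and fabp7a at 98.0, 94.5 and 89.2 RPKM in hair cells. fabp7a, which is also on the supporting cell list, averaged 93.9 RPKM in hair cells against 88.0 RPKM in nsSCs. It was not called, whereas 17 of 20 tested members of the glial list were called lower. Leukocyte entries summed to 64.1 to 68.3 RPKM in hair cells (1088 to 1123 RPKM in nsSCs), with igfbp1a and cd74a highest. igfbp1a, which is not specific to leukocytes, averaged 37.5 RPKM in hair cells against 59.6 RPKM in nsSCs. This entry was the larger part of the mean leukocyte sum of 66.9 RPKM in hair cells. It was not called, whereas 39 of 42 tested members of the list were called lower. Muscle entries summed to 55.6 to 59.8 RPKM in hair cells (2519 to 2850 RPKM in nsSCs), with desma and mylz3 highest. desma averaged 34.15 RPKM in hair cells against 2.00 RPKM in nsSCs. It was called higher, whereas 22 of 26 tested members of the list were called lower. Connective tissue entries summed to 34.1 to 35.9 RPKM in hair cells (1800.1 to 1833 RPKM in nsSCs), with dcn and col9a2 highest. Endothelial entries summed to 26.6 to 31.9 RPKM in hair cells (125 to 133 RPKM in nsSCs), with esama and tek highest. esama averaged 24.7 RPKM in hair cells against 1.02 RPKM in nsSCs. It was called higher, whereas 20 of 23 tested members of the list were called lower. Pigment cell entries were at most 1.51 RPKM in sum in hair cells and 9.28 RPKM in nsSCs, with tyrp1a and dct highest. Both of these were called higher in hair cells, whereas 9 of 13 tested members of the list were called lower. The hair cell and nsSC samples did not overlap in any of the 10 lists. Of all genes tested 66.4% were called in either direction, and how often sums of other genes overlap was not counted. Fewer cells of a type and less RNA per cell cannot be told apart in such pooled samples. The source of the RNA of these lists in the hair cell samples was not tested.

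**Figure D5:**
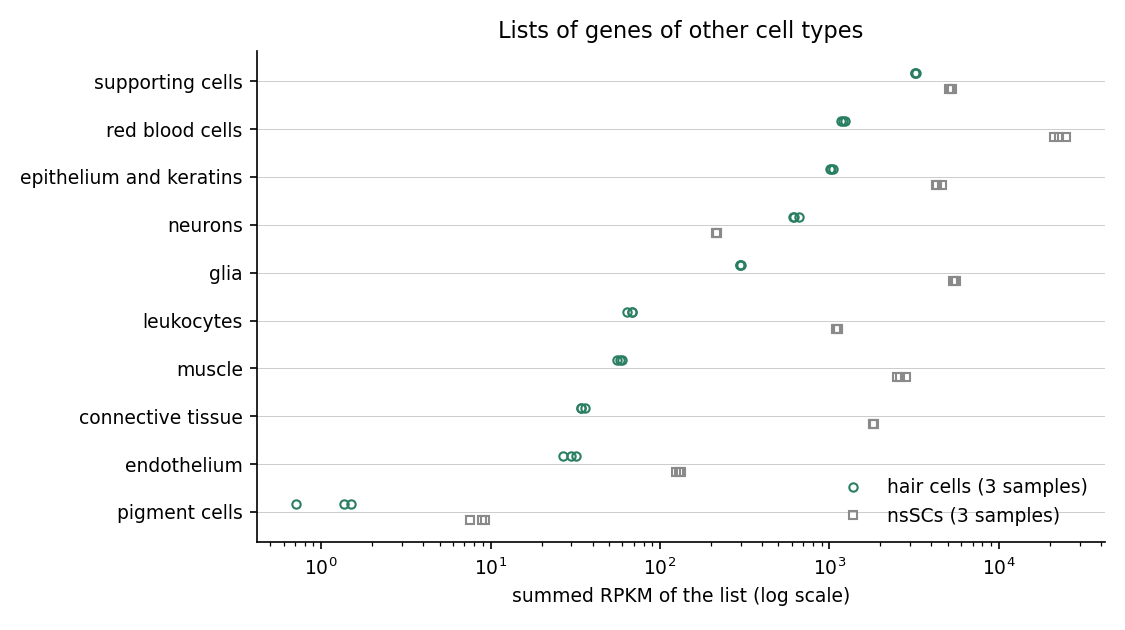
Summed RPKM (log axis) of the 10 lists of genes of other cell types in each of the 3 hair cell samples (green circles, upper) and the 3 nsSC samples (grey squares, lower). Hair cells lie to the left of nsSCs in 9 lists, by the smallest margin for supporting cells, and to the right of them for neurons (613 to 657 RPKM against 214 to 218 RPKM).

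Set against nsSCs by limma on RPKM as deposited, the hair cell profile was mostly made of genes that were also higher in hair cells. This depended on the scaling. Genes called higher no longer held the majority of the hair cell total with median-ratio scaling, or with the same total after removal of mitochondrial genes. Both shares are of the total with its mitochondrial entries. For the second setting, the share of the entries that were kept was not computed. Genes called higher took up 54.3%, 54.8% and 54.3% of the hair cell total, although they were 31.0% of the genes tested. The same genes held 5.57 ± 0.03% of the nsSC total. Genes called lower held 19.8 ± 0.41% of the hair cell total, of which the mitochondrial entries were the larger part, since without these entries the genes called lower were 5.06% of the rest. Genes that were not called held 25.8 ± 0.11%. A call is made from these same levels, so that the shares are a description. Among the 100 most abundant entries, 66 were called higher, 17 lower and 17 not. Among the first 1000, 554 were called higher, 93 lower and 353 not.

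The most abundant hair cell genes that were called lower were the 3 cytochrome c oxidase genes mt-co1, mt-co2 and mt-co3 and the entries AC024175.4 and AC024175.9. The smallest change of the 5 was that of mt-co1, with a log2 fold change of -2.02 (standard error 0.06, limma adjusted p = 1.5e-07). The most abundant that were not called were CR383676.2, slc25a5, cox7c, glula and pnrc2. cox7c had a log2 fold change of 0.97 (standard error 0.06, limma adjusted p = 3.3e-06), just under the 2-fold limit. slc25a5 averaged 3040 ± 81 RPKM in hair cells, against 3356 RPKM in nsSCs. Its log2 fold change was -0.14 (standard error 0.03, limma adjusted p = 0.0069). pnrc2, for a nuclear receptor coactivator, had 1642, 1617 and 1625 RPKM in hair cells. The log2 fold change of glula was 0.87 and that of pnrc2 was 0.62. With samples scaled to the same total RPKM, the median log2 fold change moved by 0.49. A shift of that size would put cox7c, glula and pnrc2 past the 2-fold limit, so that their status depends on the scaling.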

How the data were processed

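RNA of 3 hair cell and 3 nsSC samples was amplified with a SMART-Seq low-input kit and sequenced. Mapping by the authors was to GRCz10, for which the methods name CLC Genomics Workbench and HTSeq count, with no version given in the sources used here. The deposited values are RPKM per gene and sample, rounded to 2 decimals. Of 35919 entries, 4218 hold a name alone and were left out, and the reference list of names holds 26237 of the identifiers. No genome or sequence table was at hand, so that no coordinates or sequences are given, and the symbols are those of the deposited table.

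Shares of total RPKM, ranks within a sample, counts of genes above a level, CVs and ratios between paralogs were computed with Python 3.11.15, numpy 2.4.6, pandas 2.3.3 and scipy 1.17.1, and plots with matplotlib 3.10.9. Group differences in shares were tested by exact two-sided permutation. Genes averaging 0.1 RPKM or more in a cell type were compared on log2(RPKM + 0.1) with limma 3.58.1 under R 4.3.3 (statmod 1.5.0), using trended, robust moderation and Benjamini-Hochberg adjustment. The fold on this scale understates the change of low genes. On simulated samples with 21261 genes tested, 93 of 100 genes changed 4-fold were called, and 28 of 100 changed by the 2-fold limit itself. The changed genes were not drawn from the lowest levels above the filter, so that these numbers do not cover low genes. Far fewer genes were changed in the simulation than the 66.4% called in the data. The adjustment is stricter in that case, so that these numbers need not hold for the data.

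The text names the first 20 genes and the 3 highest of each class (2 of each list of another cell type). It also names the 10 highest of the transcription factor class, the markers and the leading family members (the others enter sums and the plot). The 10 most variable genes of at least 10 RPKM and the 5 most abundant genes called lower or not called are named too. Hair cells, the classes and the lists were chosen with earlier results of these data known. Classes and lists match symbols, so that an entry with a clone name stays among the other genes.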

Additional observations from a re-analysis of the deposited data

How the results depend on the processing

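No count was recovered from RPKM, so that nothing is said of counting error, and an entry listed at 0 may be below detection. With 3 samples per group the class shares and the measures of concentration cannot pass 0.05, and their direction is all that the alternatives test. Without mitochondrial entries, the difference between hair cells and nsSCs turned for the share of the first gene (1.34 percentage points), the first 10 (2.80) and the first 100 (1.25), for the number of genes to 90% (-69.3 genes), and for the class shares of other genes (-10.4 percentage points), translation factors (-0.65), histones and chromatin proteins (-0.16) and tubulins (-0.042). No class share or measure of concentration turned when only genes of at least 1 RPKM were kept, when entries with equal values were counted once, or when a hair cell sample was left out. At 10 RPKM in place of 1 RPKM, 5994 genes were detected in all 3 hair cell samples.

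By limma, 14846 genes were called. A pseudocount of 1 RPKM gave 9794 calls, of which 4516 were lower in hair cells, and a filter of 1 RPKM gave 5046 lower. Genes called higher took 53.7% of the hair cell total with that pseudocount, 64.4% with samples scaled to the same total, 48.4% with the same total after removal of mitochondrial genes and 46.6% with median-ratio scaling, against 54.5% as deposited. These shares are of the hair cell total with its mitochondrial entries, also where such genes were removed before scaling. With mitochondrial entries left out of the total, the genes called higher as deposited took 64.5%, a choice made after the data were seen. Leaving out 1 sample gave 54.1% to 55.3%. The median log2 fold change of all tested genes moved by 0.49 with the same total, by -0.48 with median ratios and by -0.36 with the same total without mitochondrial genes. CR383676.2 (-0.0301 with median ratios) and slc25a5 (0.35 with the same total) changed sign on the log2 scale. With the replicate block, 14887 genes were called, 6953 higher and 7934 lower. The labels do not tie a number to shared animals or days, and deviations of same-numbered samples correlated at -0.05, 0.02 and 0.001, so that the samples are not treated as paired. A sign-flip permutation of the class shares over the 3 pairs cannot give an exact p below 0.25.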

Other observations

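A few further entries of the hair cell profile were picked out after their values were seen. The microRNA entry dre-mir-182 was at 868, 524 and 272 RPKM in hair cells and listed at 0 in all 3 nsSC samples. Its neighbour in name, dre-mir-183, was at 22.7, 24.0 and 10.5 RPKM in hair cells. Both belong to a microRNA group known from sensory hair cells of vertebrates. Of 309 microRNA entries, 5, 23 and 20 were above 0 in hair cells, against 14, 11 and 12 in nsSCs, and the libraries were not made for mature microRNAs.

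Under the symbol socs3a, for a suppressor of cytokine signalling, stand 2 entries. One was at 10.3, 30.9 and 67.7 RPKM in hair cells and the other at 62.6, 42.7 and 6.10 RPKM. Their sums were 72.9, 73.6 and 73.8 RPKM, a CV of 0.669%, so that a large spread of either entry is absent from the sum. Entries with the name of a clone and outside the named classes numbered 10057 and held 9.73%, 9.69% and 9.78% of the hair cell total, against 5.28%, 5.43% and 5.29% of the nsSC total. After CR383676.2, the highest of them was si:ch211-243g18.2 with 3479, 3548 and 3408 RPKM in hair cells. CU855484.1, named gpx2 in the reference list after a glutathione peroxidase, had 3057, 2943 and 3126 RPKM.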
